A study of Arabidopsis thaliana with 12 samples.

Results

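Wild type (WT) Arabidopsis seedlings of the accession Col-0 were compared 24 hours after spraying with *Pst hrcC*- and after mock treatment, with 3 libraries in each group. The genes described are all those whose mean over these 6 WT libraries reached 1 FPKM, 16491 of the 27371 genes in the deposited tables. FPKM is the number of sequenced fragments of a gene divided by the length of its transcript and by the number of fragments mapped in the library. *Pst hrcC*- is a derivative of Pseudomonas syringae pv. tomato DC3000 that lacks a functional type III secretion system and cannot inject effector proteins into plant cells.

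All seedlings were 14 days old and were grown at 23 °C in long days on plates without sugar, and the bacteria were applied at an OD600 of 0.002. The study sequenced mRNA of whole seedlings from WT and from *linc1-1*, a T-DNA insertion line of the lamin-like nuclear gene *LINC1*, mock or *Pst hrcC*- treated, in 12 libraries. *LINC1* lay between 17.2 and 28.3 FPKM in WT and between 2.09 and 3.76 FPKM in *linc1-1*, so every library held the level of its labelled line. Within WT its log2 fold change after *Pst hrcC*- was −0.04 (SE 0.20). The labels number the replicates but do not say how separately they were grown, so the p-values measure only the spread between these libraries. In whole seedlings, fewer cells of a type and less RNA per cell cannot be told apart.

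Plants recognise conserved bacterial molecules such as flagellin by receptor kinases at the cell surface, and the defence that follows is called pattern-triggered immunity (PTI). Jasmonates (JA), salicylic acid (SA) and ethylene (ET) are hormones that shape such defences. JA is made from chloroplast lipids, and its isoleucine conjugate, JA-Ile, brings the receptor COI1 together with JAZ repressors, which are then degraded and release MYC transcription factors. MYC factors switch on the genes of JA synthesis, the JAZ repressors themselves and the enzymes that inactivate JA-Ile, so that the pathway contains its own feedback.

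The libraries of WT replicate 1 stood apart from the others. On the first principal component of the tested genes, which held 43.0% of the variance, replicate 1 lay at 66.8 (mock) and 65.3 (*Pst hrcC*-), while the other 4 WT libraries lay between −45.1 and −25.3. Pearson's r across genes was 0.810 to 0.853 for any pair with replicate 1 and 0.909 to 0.936 among replicates 2 and 3. The marker genes of green tissue moved with this: the summed FPKM of the 23 photosynthesis genes was between 25647 and 59704 in mock and between 18730 and 57617 after *Pst hrcC*-, and in both groups replicate 1 was above the mean of replicates 2 and 3 for 23 of 23 of them. For the 6 root genes the sums were 105.4 to 197.2 and 141.2 to 260.7 FPKM, and for the 16 cell cycle genes 52.8 to 158.3 and 36.9 to 82.6. Replicate 1 was also above that mean in 11 (mock) and 9 (treated) of the 11 tested cell cycle genes. For the 5 tested root genes the counts were 4 and 5, and for all 16491 tested genes 9578 and 7903. None of the photosynthesis genes was at 0 in any WT library. The part of these differences in the results was not tested, and the main counts and calls are also given without both replicate 1 libraries.

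A total of 32 genes were called higher after *Pst hrcC*-, which is 0.194% of the genes tested, and 0 were called lower (0%). A call needed an adjusted p under 0.05 (limma on log2(FPKM + 1), Benjamini-Hochberg over all 16491 genes) and a fold above 1.5. The spread in this test came from all 12 libraries, those of *linc1-1* included. Genes that passed the same fold and had an unadjusted p under 0.05 are described as nominally higher or lower: 371 were nominally higher (2.25%) and 185 nominally lower (1.12%). Under a median-ratio scaling of the libraries these became 457 and 119, and under quantile normalization 460 and 121. Without both replicate 1 libraries they were 397 and 178. Most of the transcriptome moved little: 92.5% of tested genes stayed within 1.5-fold, 34.5% had a positive log2 fold change, and the median log2 fold change of all genes was −0.09. These values come from libraries that were not scaled to each other. The median was −0.01 under median-ratio scaling and −0.02 under quantile normalization. The count of calls was 5 when the spread came from the 6 WT libraries alone, and 4 of these 5 were among the 32. Most of the 32 calls thus rest on the spread shared with *linc1-1*. The count was 8 to 44 when 1 of the 12 libraries was left out. An exact permutation test of 3 against 3 libraries cannot give a two-sided p below 0.1, so single genes rest on the fit across all genes.

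In all 32 called genes every *Pst hrcC*- library was above every mock library. Such a separation was seen in 490 of the tested genes towards higher values (2.97%) and in 832 towards lower values (5.05%). The smallest ratio of the lowest treated to the highest mock library among the called genes was 1.87. Mock means ran from 0.229 to 53.2 FPKM and treated means from 2.76 to 219.5 FPKM. For 11 of the 32 genes the mock mean was below 1 FPKM, and the log2(FPKM + 1) scale understates their change in FPKM. These 11 genes reached the minimum mean of 1 FPKM only through the treated libraries, in which they were high. Of the 32 genes, 15 belonged to 6 lists of JA genes, 1 (*PUB23*) to the list for PTI, and 16 to no list.

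**Figure D1:**
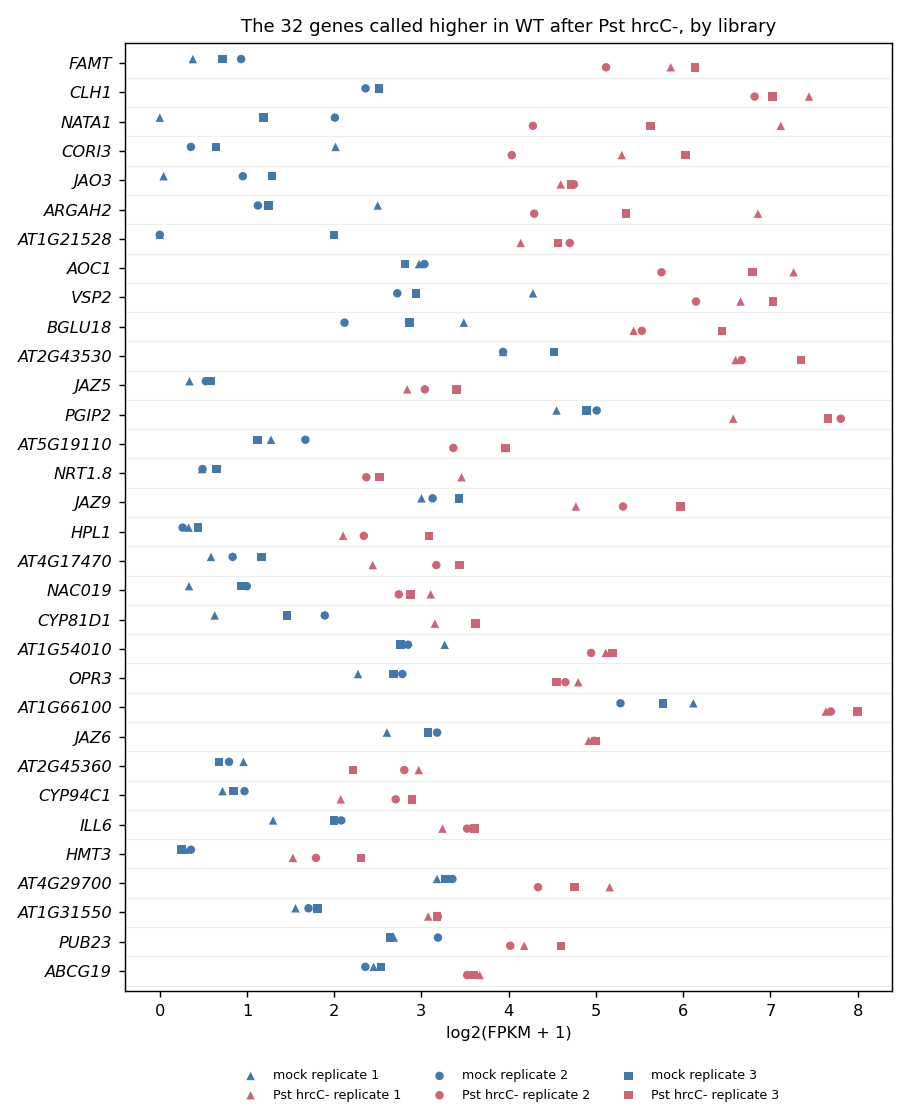
Level of each of the 32 called genes in the 6 WT libraries, as log2(FPKM + 1), with mock in blue and *Pst hrcC*- in red and replicates 1, 2 and 3 as triangles, circles and squares. In each of the 32 genes the red points lie to the right of the blue points, by the widest margins in *CLH1*, *FAMT* and *JAO3*, and the groups of *ABCG19* are tight at 4.12 to 4.81 and 10.5 to 11.7 FPKM.

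The 6 JA lists held 75 genes, of which 63 were tested. Of these 63 genes, 15 were called higher (23.8%, against 0.194% of all tested genes) and 0 lower, 45 were nominally higher, and 58 had a positive log2 fold change. The treated libraries lay wholly above the mock libraries in 41 of the 63 (65.1%, against 2.97% of all tested genes). Their median log2 fold change was 1.72, beside −0.09 for all tested genes. Without both replicate 1 libraries 8 of the 63 were called, at a background of 0.17% of tested genes. The lists were chosen with earlier results of these data known, so these shares describe the members and are not an independent test. Some members with a mock mean below 1 FPKM, such as *JAO4* and *JAZ8*, were tested only through their treated libraries.

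**Figure D2:**
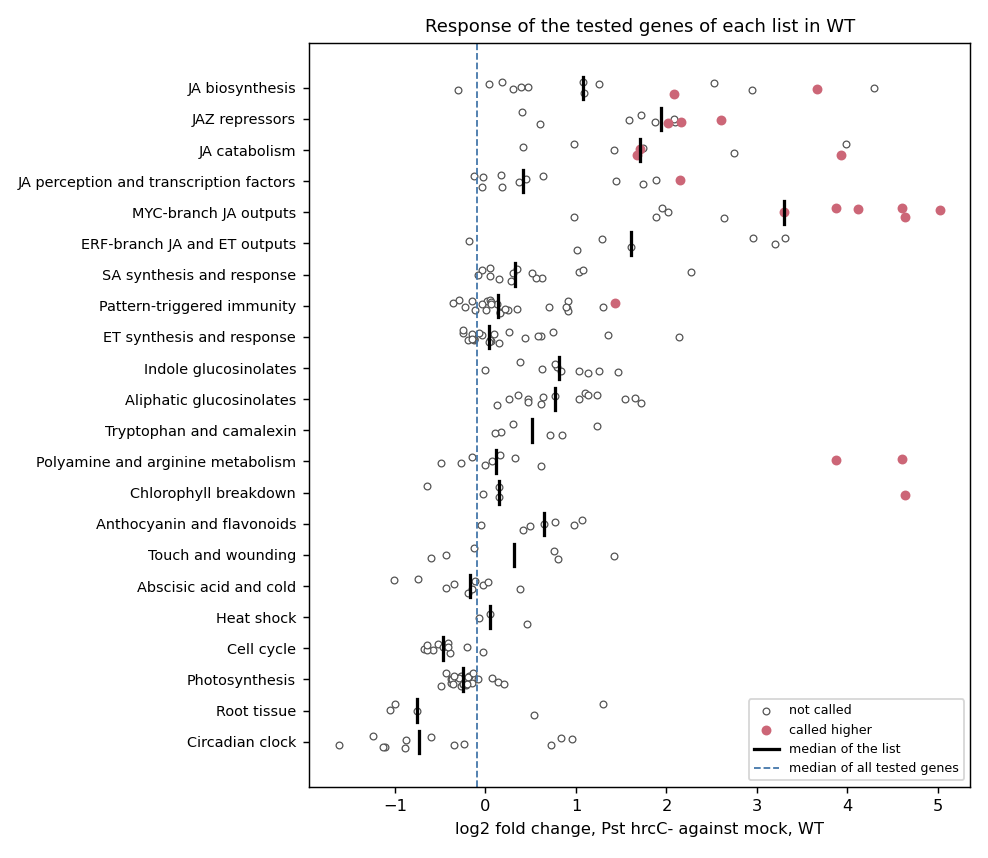
Log2 fold change of each tested member of 22 gene lists in WT, with called genes in red, genes not called as open circles, the median of each list as a black bar and the median of all tested genes, −0.09, as a dashed line. The medians of the JA lists lie between 0.41 (perception and transcription factors) and 3.30 (MYC-branch outputs), and those of the lists for cell cycle, root tissue and the circadian clock lie at or below −0.47.

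The sequences upstream of the called genes were searched for 7 short motifs on both strands. In the 300 bases before the annotated gene start (TAIR10.1, RefSeq), AACGTG or its reverse complement CACGTT was found for 13 of the 32 called genes (40.6%), for 8.57% of the 16345 tested genes with a window, for 23.3% of the nominally higher genes and for 7.14% of the nominally lower ones. Without both replicate 1 libraries it was found for 9 of 28 called genes (32.1%). AACGTG is a variant of the G-box, the family of sequences that MYC factors bind. Windows of 6 called genes with the sequence are shown because they cover a JA synthesis gene, a JA-inactivating oxygenase, a JAZ repressor, a transcription factor and 2 output genes. They run 5′ to 3′ towards the gene, on its strand, and the capitals mark AACGTG or CACGTT.
*AOC1* chr3:9403479-9403778 (plus strand): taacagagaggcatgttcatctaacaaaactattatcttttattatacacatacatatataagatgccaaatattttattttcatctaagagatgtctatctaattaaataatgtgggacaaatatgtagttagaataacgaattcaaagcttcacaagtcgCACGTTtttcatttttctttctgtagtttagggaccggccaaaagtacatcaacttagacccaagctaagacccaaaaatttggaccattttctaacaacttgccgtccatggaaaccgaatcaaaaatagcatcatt
*JAO3* chr3:20769411-20769710 (minus strand): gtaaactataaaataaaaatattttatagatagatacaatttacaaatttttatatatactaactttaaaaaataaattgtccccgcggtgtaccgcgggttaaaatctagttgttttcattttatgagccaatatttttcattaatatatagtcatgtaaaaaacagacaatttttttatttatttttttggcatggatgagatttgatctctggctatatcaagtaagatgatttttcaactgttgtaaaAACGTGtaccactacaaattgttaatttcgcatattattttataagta
*JAZ5* chr1:5957512-5957811 (minus strand): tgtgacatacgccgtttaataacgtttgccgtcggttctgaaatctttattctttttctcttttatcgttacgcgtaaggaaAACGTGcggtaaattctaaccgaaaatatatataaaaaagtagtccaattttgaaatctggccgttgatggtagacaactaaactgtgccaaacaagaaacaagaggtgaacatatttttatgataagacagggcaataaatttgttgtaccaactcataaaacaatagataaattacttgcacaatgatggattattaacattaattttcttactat
*NAC019* chr1:19698483-19698782 (minus strand): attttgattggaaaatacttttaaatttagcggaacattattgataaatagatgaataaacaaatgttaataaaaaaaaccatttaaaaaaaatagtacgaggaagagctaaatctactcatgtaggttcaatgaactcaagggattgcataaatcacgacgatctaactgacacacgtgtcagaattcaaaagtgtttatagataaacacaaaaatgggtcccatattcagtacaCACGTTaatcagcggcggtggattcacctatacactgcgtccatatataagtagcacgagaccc
*NATA1* chr2:16297810-16298109 (plus strand): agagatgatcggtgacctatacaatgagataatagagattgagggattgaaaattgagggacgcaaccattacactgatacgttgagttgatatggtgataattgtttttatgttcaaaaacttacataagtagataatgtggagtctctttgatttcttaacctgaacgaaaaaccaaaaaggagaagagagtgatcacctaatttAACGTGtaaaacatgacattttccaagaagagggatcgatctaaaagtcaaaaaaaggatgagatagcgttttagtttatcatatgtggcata
*FAMT* chr3:16379271-16379570 (plus strand): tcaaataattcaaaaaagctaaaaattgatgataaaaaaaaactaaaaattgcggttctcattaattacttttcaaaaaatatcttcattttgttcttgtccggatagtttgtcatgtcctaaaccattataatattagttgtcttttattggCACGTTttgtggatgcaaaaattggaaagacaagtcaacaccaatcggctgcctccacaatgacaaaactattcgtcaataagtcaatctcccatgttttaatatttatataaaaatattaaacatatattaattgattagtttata
Counted back from the gene start, the first base of the match lay at −138 in *AOC1*, −48 in *JAO3*, −218 in *JAZ5*, −64 in *NAC019*, −93 in *NATA1* and −147 in *FAMT*. The other 7 called genes with the sequence were *JAZ6*, *PGIP2*, *HMT3*, AT1G54010, AT2G43530, AT2G45360 and AT4G17470. Of the 13 genes with it, 7 were in the JA lists and 6 in no list. The called genes of the JA lists without it were *CLH1*, *CORI3*, *ARGAH2*, *VSP2*, *JAZ9*, *OPR3*, *CYP94C1* and *ILL6*. Among the 63 tested JA list genes it was found for 16 (25.4%). Of the other motifs, the palindromic G-box CACGTG was in 3 of 32 windows (9.38%, against 7.93% of tested genes) and CACATG in 6 (18.8%, against 13.0%). The GCC box GCCGCC, bound by ERF factors, was in 0 (against 2.37%). The W-box forms TTGACC and TTGACT, bound by WRKY factors, were in 2 (6.25%, against 14.0%) and 5 (15.6%, against 21.4%), and the evening element AATATCT was in 1 (3.13%, against 1964 of the 16345 tested genes and 22.5% of the nominally lower ones). Among the nominally higher genes CACGTG was in 15.2% of the windows, CACATG in 18.2%, GCCGCC in 3.52%, TTGACC in 16.0%, TTGACT in 29.5% and AATATCT in 11.4%. Among the 28 genes called without both replicate 1 libraries CACGTG was in 6 (21.4%), CACATG in 5 (17.9%), GCCGCC in 0, TTGACC in 1 (3.57%), TTGACT in 3 (10.7%) and AATATCT in 4 (14.3%). A match is a description of the letters and not of binding.

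JA synthesis starts with the oxidation of linolenic acid by lipoxygenases, continues through allene oxide synthase and allene oxide cyclase in the chloroplast, and ends with the reduction of 12-oxo-phytodienoic acid by *OPR3* and side chain shortening in the peroxisome. Of the 14 tested genes of the list, 2 were called higher and 8 were nominally higher, against 0.194% and 2.25% of all tested genes. Their median log2 fold change was 1.08. *AOC1* (AT3G25760, chromosome 3, 9403779 to 9405338), an allene oxide cyclase, was at 6.85, 7.19 and 6.02 FPKM in mock replicates 1, 2 and 3 and at 153, 52.9 and 110 FPKM after *Pst hrcC*-. The lowest treated library was above the highest mock library by a wide margin, and the log2 fold change was 3.66 (SE 0.41, adjusted p = 0.00597). *OPR3* (AT2G06050, chromosome 2, 2359114 to 2362375) was at 3.83, 5.87 and 5.40 FPKM in mock and at 26.8, 24.1 and 22.4 FPKM after treatment. Its groups were tight, and the log2 fold change was 2.09 (SE 0.26, adjusted p = 0.0106).

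*LOX2*, the main lipoxygenase of leaf JA synthesis, had the largest change of a JA synthesis gene and was not called. It was at 40.8, 4.04 and 4.1 FPKM in mock and at 306, 134 and 195 FPKM after *Pst hrcC*-. Mock replicate 1 lay far above the other mock libraries, and the log2 fold change of 4.29 had an SE of 0.76 and an adjusted p of 0.0592. *AOS*, allene oxide synthase, showed the same pattern, at 51.6, 14.6 and 13.3 FPKM in mock and 250, 99.0 and 215 FPKM after treatment (log2 fold change 2.95, SE 0.60, adjusted p = 0.113). *AOC2*, a close paralogue of *AOC1* with which it may share reads, was at 74.3, 16.6 and 15.4 FPKM in mock and at 308, 97.9 and 133 FPKM after treatment (log2 fold change 2.52, SE 0.59, adjusted p = 0.196). In all 3 genes mock replicate 1 was the highest mock library and still below every treated library. Without both replicate 1 libraries *LOX2* and *AOC2* were called (log2 fold changes 5.003 and 2.76, adjusted p = 0.015 and 0.0197), *AOC1* stayed called and *OPR3* was not (adjusted p = 0.0778).

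The JAZ proteins repress MYC factors, and their genes are themselves MYC targets. All 10 tested JAZ genes had positive log2 fold changes, with a median of 1.94, and 8 were nominally higher, against 2.25% of all tested genes. *JAZ4*, *JAZ11* and *JAZ13* were below the minimum of 1 FPKM, with no library above 1.33 FPKM. *JAZ11* was at 1.33, 0.954 and 1.04 FPKM in mock and at 1.11, 1.05 and 0.37 FPKM after treatment. *JAZ5*, *JAZ8* and *JAZ10*, with mock means of 0.404, 0.149 and 0.520 FPKM, reached the minimum only through their treated libraries. *JAZ6* (AT1G72450, chromosome 1, 27273968 to 27276562) was at 5.08, 8.06 and 7.44 FPKM in mock and at 29.2, 30.6 and 30.9 FPKM after *Pst hrcC*-, and its log2 fold change was 2.01 (SE 0.19, adjusted p = 0.00413). Its treated libraries differed by less than any other called JAZ gene's, and the call held in each of the 12 fits that left out 1 library. *JAZ5* was at 0.266, 0.441 and 0.505 FPKM in mock and at 6.14, 7.22 and 9.58 FPKM after treatment (log2 fold change 2.61, SE 0.33, adjusted p = 0.0106). *JAZ9* was at 7, 7.74 and 9.76 FPKM in mock and at 26.3, 38.7 and 61.7 FPKM after treatment (log2 fold change 2.17, SE 0.36, adjusted p = 0.0492), close to the threshold.

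Several JAZ genes with changes of like size were not called. *JAZ1* was at 5.70, 14.3 and 11.3 FPKM in mock and at 30.5, 50.3 and 59.6 FPKM after treatment (log2 fold change 2.09, SE 0.39, adjusted p = 0.0727). Replicate 1 was the lowest library within both groups, the reverse of its place in *LOX2* and *AOS*. *JAZ10* was at 0.717, 0.415 and 0.427 FPKM in mock and at 3.30, 4.49 and 10.2 FPKM after treatment (log2 fold change 2.08, SE 0.43, adjusted p = 0.129). *JAZ2*, *JAZ7* and *JAZ8* had log2 fold changes of 1.59, 1.87 and 1.72, with no overlap between groups. *JAZ6* was the 1 JAZ gene called without both replicate 1 libraries.

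Enzymes that inactivate JA or JA-Ile formed the next list. All 9 tested genes of the list had positive log2 fold changes, with a median of 1.71. *JAO3*, *JAO4* and *CYP94C1* reached the minimum of 1 FPKM only through their treated libraries, and *JAO1* was below it. Of the 9, 8 were nominally higher and 3 were called, against 2.25% and 0.194% of all tested genes. *JAO3* (AT3G55970, chromosome 3, 20766735 to 20769410) encodes an oxygenase that hydroxylates JA, and was at 0.0306, 0.934 and 1.44 FPKM in mock and at 23.2, 25.9 and 25.2 FPKM after *Pst hrcC*-. The treated libraries were nearly equal, and the log2 fold change was 3.93 (SE 0.42, adjusted p = 0.00544). *CYP94C1*, a cytochrome P450 that oxidises JA-Ile, was at 0.646, 0.960 and 0.797 FPKM in mock and at 3.21, 5.52 and 6.41 FPKM after treatment (log2 fold change 1.71, SE 0.29, adjusted p = 0.0488). *ILL6*, an amidohydrolase that cleaves JA-Ile conjugates, was at 1.46, 3.23 and 2.99 FPKM in mock and at 8.46, 10.5 and 11.2 FPKM after treatment (log2 fold change 1.67, SE 0.26, adjusted p = 0.0331). *JAO3* alone of these 3 was called without both replicate 1 libraries.

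The paralogues *JAO2* and *JAO4* did not pass. *JAO2* was at 2.90, 10.7 and 9.77 FPKM in mock and at 32.1, 67.5 and 64.9 FPKM after treatment (log2 fold change 2.75, SE 0.49, adjusted p = 0.0592). *JAO4* was at 0.0364, 0.701 and 0.967 FPKM in mock and at 27.5, 24.5 and 18.1 FPKM after treatment (log2 fold change 3.99, SE 0.93, adjusted p = 0.196). The SE of *JAO4* comes from the fit over all 4 groups, which the *linc1-1* libraries enter. The sulfotransferase gene *ST2A* and the amidohydrolase gene *IAR3* had log2 fold changes of 1.75 (adjusted p = 0.0592) and 1.42 (adjusted p = 0.196).

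Among the 12 genes for JA perception and transcription factors, 1 was called, against 0.194% of all tested genes. The median log2 fold change was 0.41. The called gene was *NAC019* (AT1G52890, chromosome 1, 19696923 to 19698482), a NAC transcription factor that acts below *MYC2*. It was at 0.261, 0.996 and 0.917 FPKM in mock and at 7.61, 5.68 and 6.33 FPKM after *Pst hrcC*-, and its log2 fold change was 2.15 (SE 0.25, adjusted p = 0.00641). *MYC2*, the main MYC factor of the pathway, was at 9.56, 33.5 and 24.0 FPKM in mock and at 38.9, 99.8 and 113 FPKM after treatment (log2 fold change 1.88, SE 0.49, adjusted p = 0.322). Replicate 1 was the lowest library within both groups, and the lowest treated library was only just above the highest mock library.

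Of the gene lists, the outputs of the MYC branch had the highest median log2 fold change. All 11 tested genes of the list were nominally higher (2.25% of all tested genes) and without overlap between the groups (2.97%). Of the 11, 6 were called (0.194% of all tested genes), and the median log2 fold change was 3.30. Some of the 11, such as *FAMT* with a mock mean of 0.618 FPKM, reached the minimum of 1 FPKM only through their treated libraries. The list genes below the minimum, *TPS04*, *BSMT1* and *CYP82G1*, overlapped between the groups. *FAMT* (AT3G44860, chromosome 3, 16379571 to 16381434), a methyltransferase of farnesoic acid, was at 0.300, 0.908 and 0.646 FPKM in mock and at 57.0, 33.7 and 69.2 FPKM after *Pst hrcC*-. Its mean rose 86.3-fold on the FPKM scale, and the log2 fold change, 5.03 (SE 0.62, adjusted p = 0.00867), was the largest of the called genes. *CLH1* (AT1G19670, chromosome 1, 6803486 to 6805092), a chlorophyllase, was at 4.69, 4.13 and 4.70 FPKM in mock and at 173, 112 and 129 FPKM after treatment. Its log2 fold change was 4.64 (SE 0.39), its adjusted p, 0.00215, was the lowest of all genes, and it was called in each of the 12 fits that left out 1 library. The other 4 tested genes of chlorophyll breakdown, the stay-green and pheophytinase route among them, were not called and had log2 fold changes between −0.65 and 0.15.

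*CORI3*, a tyrosine aminotransferase-like protein named for its induction by the Pseudomonas toxin coronatine, was at 3.04, 0.280 and 0.566 FPKM in mock and at 38.3, 15.4 and 64.2 FPKM after treatment (log2 fold change 4.11, SE 0.60, adjusted p = 0.028). *VSP2*, a vegetative storage protein and acid phosphatase, was at 18.4, 5.6 and 6.67 FPKM in mock and at 100, 69.9 and 130 FPKM after treatment (log2 fold change 3.30, SE 0.39, adjusted p = 0.00641). Both genes had their highest mock level in replicate 1. Of the 6 called outputs, *CLH1* and *VSP2* were also called without both replicate 1 libraries. *VSP1*, the neighbouring paralogue of *VSP2*, with which it may share reads, was at 7.29, 20.9 and 13.8 FPKM in mock and at 57.4, 44.0 and 67.3 FPKM after treatment, and was not called (log2 fold change 2.02, SE 0.37, adjusted p = 0.0709).

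Arginine metabolism was represented by 2 strong outputs. *ARGAH2*, an arginase that releases ornithine from arginine, was at 4.65, 1.18 and 1.37 FPKM in mock and at 115, 18.6 and 39.7 FPKM after *Pst hrcC*- (log2 fold change 3.88, SE 0.64, adjusted p = 0.0465). *NATA1*, which acetylates ornithine, was listed at 0 in mock replicate 1 and at 3.02 and 1.28 FPKM in the others, and at 138, 18.4 and 48.4 FPKM after treatment (log2 fold change 4.61, SE 0.74, adjusted p = 0.0441). In both genes treated replicate 1 was the highest library, and neither was called without both replicate 1 libraries (adjusted p = 0.0552 and 0.158). None of the other 8 tested genes of arginine and polyamine metabolism was called, and their log2 fold changes lay between −0.49 and 0.61. *RAP2.6*, an ERF-type factor of the same output list, had a log2 fold change of 1.89 (adjusted p = 0.0592).

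The outputs of the ERF branch, which needs both JA and ET, behaved differently between replicates. None of the 7 tested genes was called, while 5 were nominally higher, against 2.25% of all tested genes. The median log2 fold change was 1.61, and 0.75 without both replicate 1 libraries. In 2 of the 7 the treated libraries lay wholly above the mock libraries (2.97% of all tested genes). In all 7, replicate 1 was below the mean of replicates 2 and 3 in mock and above it after treatment. *PDF1.2b*, a plant defensin and the marker gene of the branch, was listed at 0, 6.6 and 3.14 FPKM in mock replicates 1, 2 and 3 and at 259, 17.4 and 5.38 FPKM after *Pst hrcC*-. *PDF1.2a* was at 0.968, 13.5 and 7.41 FPKM in mock and at 321, 41.0 and 7.17 FPKM after treatment. *PDF1.2c* was at 0.109, 5.99 and 5.73 FPKM in mock and at 265, 21.6 and 5.80 FPKM after treatment. In these 3 closely related genes, which may share reads, replicate 1 was the lowest mock library and by far the highest treated library, and replicate 3 differed far less between treatments. Their log2 fold changes of 3.31, 2.95 and 3.20 had SEs of 1.09 to 1.19 and adjusted p from 0.703 to 0.895, and fell to 0.95, 0.75 and 0.85 without both replicate 1 libraries.

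**Figure D3:**
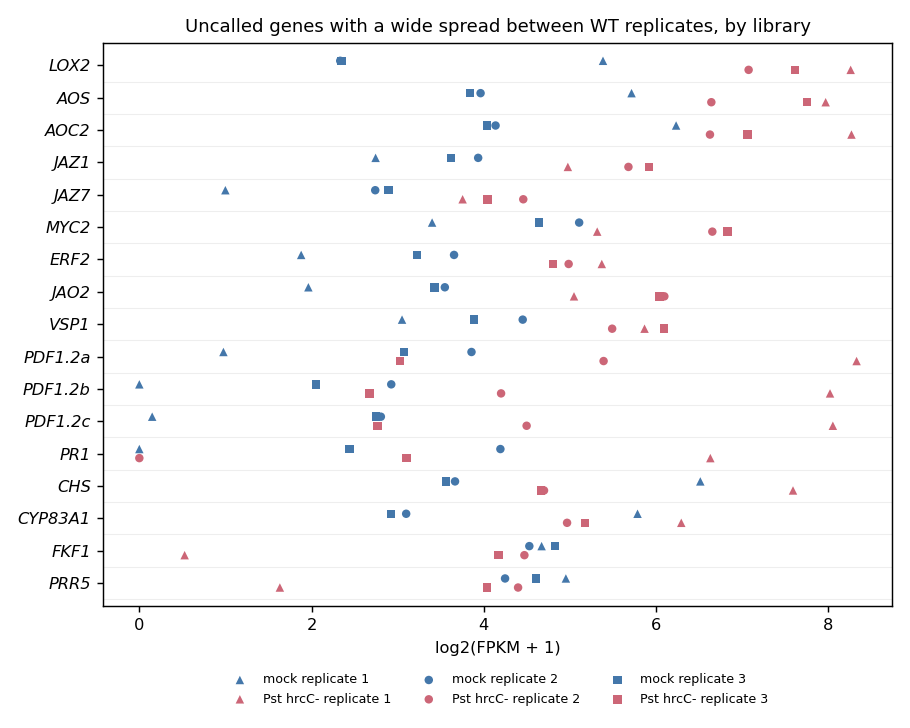
Level, as log2(FPKM + 1), of 17 genes not called in WT whose replicates were widely spread, with mock in blue and *Pst hrcC*- in red and replicates 1, 2 and 3 as triangles, circles and squares. Replicate 1 lies to the right in *LOX2*, *AOS*, *AOC2*, *CHS* and *CYP83A1*, to the left in *JAZ1* and *MYC2*, and to the left in mock but far to the right after treatment in *PDF1.2a*, *PDF1.2b* and *PDF1.2c*.

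Among the called genes outside the JA lists were several proteins of defence and of oxylipin metabolism. AT1G66100, a plant thionin, had the highest levels of the called genes, at 68.4, 37.9 and 53.5 FPKM in mock and 198, 206 and 255 FPKM after *Pst hrcC*- (log2 fold change 2.05, SE 0.27, adjusted p = 0.0112). *PGIP2*, a cell wall protein that inhibits fungal polygalacturonases, was at 22.4, 31.2 and 28.7 FPKM in mock and at 94.3, 223 and 201 FPKM after treatment (log2 fold change 2.53, SE 0.38, adjusted p = 0.0309). AT2G43530, a knottin-fold protein of the scorpion toxin-like type, was at 14.3, 14.3 and 21.9 FPKM in mock and at 96.1, 101 and 162 FPKM after treatment (log2 fold change 2.75, SE 0.45, adjusted p = 0.0465). All 3 encode small or secreted proteins and had treated levels near or above 100 FPKM in every library. AT1G66100 overlaps another annotated gene on the same strand, with which its fragments could be shared. Without both replicate 1 libraries AT1G66100 and *PGIP2* were called and AT2G43530 was not (adjusted p = 0.163).

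*BGLU18*, a beta-glucosidase of ER bodies, was at 10.2, 3.34 and 6.28 FPKM in mock and at 42.2, 45.1 and 86.1 FPKM after *Pst hrcC*- (log2 fold change 2.98, SE 0.43, adjusted p = 0.0257). *HPL1* is annotated as a hydroperoxide lyase, an enzyme type that takes lipid hydroperoxides into the branch of oxylipin metabolism that gives leaf aldehydes. It was at 0.257, 0.199 and 0.354 FPKM in mock and at 3.29, 4.06 and 7.48 FPKM after treatment (log2 fold change 2.16, SE 0.28, adjusted p = 0.0112). *PUB23*, a U-box ubiquitin ligase that dampens PTI, was at 5.42, 8.12 and 5.24 FPKM in mock and at 17.1, 15.2 and 23.2 FPKM after treatment (log2 fold change 1.43, SE 0.24, adjusted p = 0.0496). The call of *PUB23* held in 1 of the 12 fits that left out 1 library, and a gene on the opposite strand overlaps it. *BGLU18* and *HPL1* were also called without both replicate 1 libraries, and *PUB23* was not.

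AT1G21528, an uncharacterised gene, was listed at 0 in mock replicates 1 and 2 and at 2.99 FPKM in replicate 3, and at 16.6, 25 and 22.7 FPKM after *Pst hrcC*- (log2 fold change 3.80, SE 0.43, adjusted p = 0.00597). AT5G19110, an aspartyl protease family gene, was at 1.42, 2.18 and 1.17 FPKM in mock and at 14.6, 9.31 and 14.6 FPKM after treatment (log2 fold change 2.41, SE 0.26, adjusted p = 0.00544). AT1G54010, a GDSL lipase-like gene, was at 8.62, 6.19 and 5.78 FPKM in mock and at 33.6, 29.8 and 35.5 FPKM after treatment (log2 fold change 2.13, SE 0.24, adjusted p = 0.00597). These 3 genes, together with *CLH1*, *JAO3*, *AOC1*, *NAC019* and *JAZ6*, were the 8 called in each of the 12 fits that left out 1 library. All 8 were also called without both replicate 1 libraries. The remaining called genes had log2 fold changes from 1.15 to 2.24. They were the nitrate transporter gene *NRT1.8* (2.24), the hydrolase AT4G17470 (2.16), the cytochrome P450 *CYP81D1* (2.14), AT2G45360 (1.85), the homocysteine methyltransferase *HMT3* (1.58), AT4G29700 (1.48), the GDSL lipase-like AT1G31550 (1.46) and the ABC transporter *ABCG19* (1.15). The values of *NRT1.8*, AT2G45360 and AT4G29700 may share fragments with overlapping genes on the opposite strand, since the source files do not show whether strand was used. None of the called genes from *NRT1.8* to *ABCG19* was called without both replicate 1 libraries (adjusted p from 0.0874 to 0.182). The calls of *CYP81D1* and AT1G31550 each held in 1 of the 12 fits that left out 1 library.

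**Figure D4:**
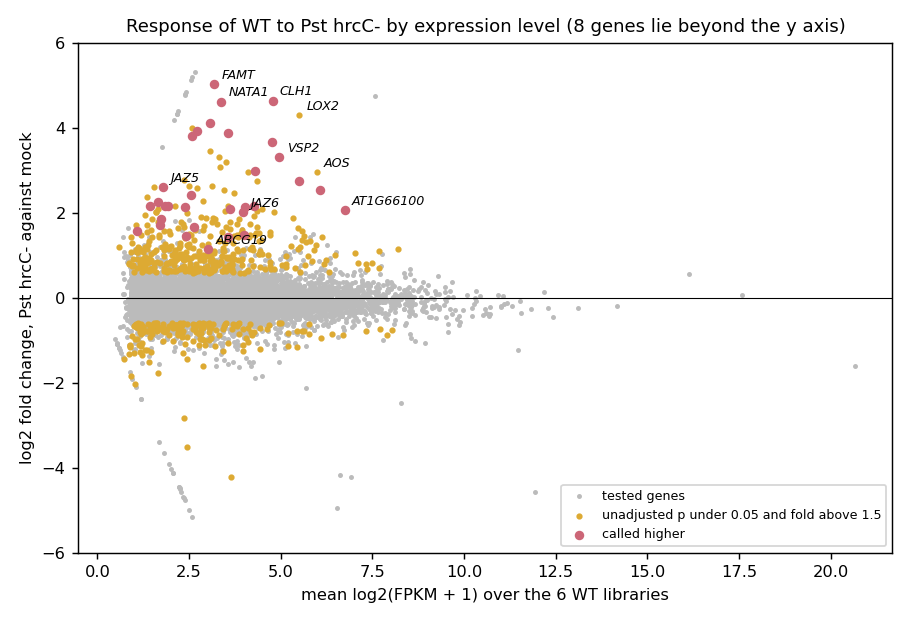
Log2 fold change after *Pst hrcC*- in WT against the mean log2(FPKM + 1) over the 6 WT libraries for the tested genes, with called genes in red and nominally higher or lower genes in yellow. All 32 called genes lie above 0, and 8 tested genes lie beyond the axis limit of 6 in either direction.

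Of the 24 tested genes of PTI, 1 (*PUB23*) was called, against 0.194% of all tested genes, and 7 were nominally higher, against 2.25%. A positive log2 fold change was found in 18 of the 24, and the median was 0.14. *PUB23* was not called without both replicate 1 libraries (adjusted p = 0.191), so that none of the 24 was. *WRKY18*, a transcription factor, was at 8.13, 4.31 and 6.59 FPKM in mock and at 14.2, 15.2 and 21.0 FPKM after *Pst hrcC*- (log2 fold change 1.29, SE 0.31, adjusted p = 0.208). The groups did not overlap in *WRKY33*, *WRKY40*, *PUB22* and *CYP81F2* either, with log2 fold changes of 0.70, 0.91, 0.89 and 0.91 and adjusted p between 0.418 and 0.926. *RBOHD*, the NADPH oxidase of the oxidative burst, had a log2 fold change of 0.92 with overlapping groups, and the MAP kinase gene *MPK3* one of 0.16. *FRK1*, the usual flagellin marker, was below the minimum, at 0.0664 to 0.108 FPKM in mock and 0.479 to 0.787 FPKM after treatment.

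None of the tested SA and ET genes was called. Of the 14 tested SA genes 1 was nominally higher, against 2.25% of all tested genes. This gene was *GRX480*, a glutaredoxin gene that also represses JA/ET outputs. It was at 2.17, 3.09 and 1.85 FPKM in mock and at 10.6, 10.9 and 28.9 FPKM after treatment (log2 fold change 2.27, SE 0.44, adjusted p = 0.0975). *PR1*, the main SA marker, was listed at 0, 17.3 and 4.43 FPKM in mock and at 98.2, 0 and 7.59 FPKM after treatment. Its libraries crossed the whole range within each group, and the log2 fold change of 1.03 (SE 1.37) turned to −1.77 without both replicate 1 libraries. In *PR2* the log2 fold change was 1.08 (SE 0.64) and the groups overlapped. The median log2 fold change of the SA list was 0.33, and 0.10 without both replicate 1 libraries. A positive log2 fold change was found in 12 of the 14 (34.5% of all tested genes), and in 9 without both replicate 1 libraries. The list held 23 genes. *AIG1*, *NIMIN1*, *ICS1*, *EDS5*, *PBS3*, *SARD1*, *WRKY54*, *ALD1* and *FMO1* were below the minimum of 1 FPKM, so the counts do not cover them.

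Of the 23 tested ET genes 3 were nominally higher, against 2.25% of all tested genes, and the median log2 fold change was 0.04. *ACS2* and *ACS8* of this list were below the minimum of 1 FPKM. *ERF2*, an ethylene response factor that JA also induces, was at 2.68, 11.6 and 8.34 FPKM in mock and at 40.4, 30.7 and 27.0 FPKM after *Pst hrcC*- (log2 fold change 2.13, SE 0.45, adjusted p = 0.138). *ERF1A* had a log2 fold change of 1.36 (adjusted p = 0.895). *ACS11*, a gene of ET synthesis, and *ERF6* were near 0, at −0.03 and −0.15.

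Glucosinolates are sulfur-rich defence compounds of the cabbage family, made from tryptophan (indole type) or methionine (aliphatic type). None of their genes was called with all libraries, while 6 of 10 tested indole and 6 of 15 tested aliphatic genes were nominally higher, against 2.25% of all tested genes. Positive log2 fold changes were found in 9 of the 10 and 15 of the 15, against 34.5% of all tested genes, with medians of 0.81 and 0.77. *CYP79B3*, which starts the indole route, was at 15.2, 17.5 and 11.9 FPKM in mock and at 59.5, 29.0 and 43.7 FPKM after *Pst hrcC*- (log2 fold change 1.46, SE 0.26, adjusted p = 0.0592). *CYP83B1*, the next enzyme, had a log2 fold change of 1.25 (adjusted p = 0.276), *CYP79B2* one of 1.14, and the regulators *MYB34* and *MYB51* ones of 0.63 and −0.00075. *ASA1*, the first enzyme of tryptophan synthesis, had a log2 fold change of 0.84 (adjusted p = 0.155) and *CYP71A12*, of the camalexin route, one of 1.23 with overlapping groups.

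The aliphatic genes differed between replicates. *CYP79F1*, which starts the aliphatic route, was at 9.86, 0.461 and 0.377 FPKM in mock and at 11, 6.55 and 7.69 FPKM after treatment. *CYP83A1*, the next enzyme, was at 54.2, 7.57 and 6.57 FPKM in mock and at 77.5, 30.3 and 35.2 FPKM after treatment. In replicate 1 both were already high in mock, and their log2 fold changes were 1.72 (adjusted p = 0.782) and 1.54 (adjusted p = 0.899) with all libraries. Without both replicate 1 libraries they were 2.51 and 2.06 (adjusted p = 0.015 for both), and *BCAT4*, an aminotransferase of methionine chain elongation, had 1.89 (adjusted p = 0.0408). The regulators *MYB28* and *MYB29* and the paralogue *CYP79F2* had log2 fold changes of 0.36, 0.77 and 0.62 and were not called in either fit.

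Leaving out both replicate 1 libraries gave 28 calls, all higher, of which 13 were among the 32 and 15 were not. Of these 15, 14 were nominally higher with all libraries. Beside *LOX2*, *AOC2* and the 3 aliphatic genes they included *IPMI1*, an isomerase of methionine chain elongation (log2 fold change 1.83). They also included *GSTU5*, a glutathione transferase (1.81), and *ESP*, annotated as an epithiospecifier protein (1.44). *CHS*, chalcone synthase, the entry to flavonoid synthesis, was at 90.5, 11.7 and 10.8 FPKM in mock and at 192, 25 and 24.4 FPKM after *Pst hrcC*-. Its log2 fold change was 1.07 in both fits, and its adjusted p went from 0.995 to 0.0408. *DFR*, of the anthocyanin branch, had a log2 fold change of 0.98 with overlapping groups.

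No gene was called lower, and the lists with a median below that of all genes were those of abscisic acid and cold (−0.17), photosynthesis (−0.24), cell cycle (−0.47), the circadian clock (−0.74) and root tissue (−0.76). A positive log2 fold change was found in 0 of the 11 tested cell cycle genes, and in 2 of them without both replicate 1 libraries, against 34.5% of all tested genes, with *CYCB1;2* at −0.68 and *CDC20.1* at −0.65. Without both replicate 1 libraries the medians of the cell cycle and clock lists were −0.20 and −0.09. The most negative values were −0.49 and −0.43 for *PSBP1* and *LHCB4.2* in the photosynthesis list and −1.01 and −0.75 for *RD29A* and *COR47* in the cold list, none of them called. In the root list *IRT1* and *PRP3* had log2 fold changes of 1.29 and −1.05, with SEs of 1.39 and 0.74.

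The clock genes set 1 library apart. *FKF1*, an evening-phased blue light receptor, was at 24.5, 22.1 and 27.4 FPKM in mock and at 0.440, 21.2 and 17.0 FPKM after *Pst hrcC*-. *PRR5*, a clock repressor, was at 18 to 30 FPKM in mock, at 2.1 FPKM in treated replicate 1 and at 15.4 FPKM or more in the other treated libraries. In 9 of the 12 tested clock genes treated replicate 1 was below each of the other 5 WT libraries, and in the other 3 it was above them. The share of all tested genes with such a place of this library was not computed. Of the 12 genes, 3 were nominally lower (1.12% of all tested genes). The treated libraries lay wholly below mock in 3 (5.05% of all tested genes). The log2 fold changes of *FKF1* and *PRR5* were −1.62 and −1.25, and −0.36 and −0.21 without both replicate 1 libraries.

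The largest negative changes were in genes with short transcripts or with values listed at 0. AT3G01319, whose longest annotated transcript has 141 bases, was listed at 21200, 36700 and 37800 FPKM in mock and at 0 in all treated libraries, and was not called (adjusted p = 0.331). AT5G14560, with a still shorter one, was at 37700, 71500 and 129000 FPKM in mock and at 25700, 0 and 0 FPKM after treatment. Such short transcripts have few positions for a fragment, and a listed 0 can be a failed estimate, so no fold is given for these genes. The same limits touch 3 called genes: the longest annotated transcript has 252 bases in AT2G43530 and 463 in AT1G21528, and AT1G21528 and *NATA1* have mock libraries listed at 0, and neither of these was called with a pseudocount of 0.1. AT3G01940 and AT3G27027, of the same family of unknown function, were at 18.4, 13.2 and 20.8 FPKM and at 10.9, 11.1 and 16.8 FPKM in mock, and at 0, 3.11 and 0 FPKM and at 0, 6.11 and 0 FPKM after treatment. AT5G65609 was listed at 60.0, 74.5 and 32.5 FPKM in mock and at 0, 22.5 and 0 FPKM after treatment, and the plastid gene ATCG01060 at 11.8, 11.7 and 11.8 FPKM and at 0, 9.79 and 5.89 FPKM.

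*EXPA11*, an expansin that loosens cell walls, was at 15.6, 6.12 and 5.08 FPKM in mock and at 4, 1.16 and 2.27 FPKM after *Pst hrcC*- (log2 fold change −1.45, SE 0.44, adjusted p = 0.521). *ACD32.1*, a small heat shock-like protein of the peroxisome, had a log2 fold change of −1.26 (adjusted p = 0.764). The 6 heat shock genes summed to 3.58 to 10.02 FPKM in the WT libraries, and *HSP70* and *HSP17.6A* had log2 fold changes of 0.46 and −0.08. Touch and wound genes gave no call, with *ZAT10* at 1.42 (adjusted p = 0.48) and *ZAT12* at 0.81.

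Large positive changes that were not called included genes of no list. AT1G52000, a mannose-binding lectin, was at 1.84, 0.998 and 1.86 FPKM in mock and at 21.7, 19.3 and 44.4 FPKM after *Pst hrcC*- (log2 fold change 3.44, SE 0.64, adjusted p = 0.0784). AT4G18440, AT4G22470 and AT3G28220 had log2 fold changes of 3.07, 2.77 and 2.64, each without overlap between the groups. AT4G18440 was called without both replicate 1 libraries (adjusted p = 0.0458).

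The response of *linc1-1* to *Pst hrcC*- can be set beside that of WT for the called genes, since each line has its own mock libraries. All 32 genes had a positive log2 fold change in *linc1-1* and 27 were called higher there, where 0.594% of all tested genes were called higher. Both responses were tested with the same spread per gene, so the calls in *linc1-1* are not independent of those in WT. The median of their log2 fold changes was 2.16 for WT against 2.72 for *linc1-1*, with the larger value in *linc1-1* for 20 of the 32. *VSP2* had log2 fold changes of 3.30 in WT and 5.02 in *linc1-1*, while *NAC019* had 2.15 and 0.58 and *NRT1.8* had 2.24 and 0.59. By the test of the difference of the responses (limma), 0 genes passed among all genes tested (0%), and 319 passed by unadjusted p and fold (1.93%). The reference genes of the study's qRT-PCR, *ACT2* and *UBQ10*, had log2 fold changes of 0.04 and 0.30 in WT.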

How the data were processed

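Per the labels, mRNA of whole seedlings was sequenced in paired ends on a HiSeq4000, and the authors mapped the reads to TAIR10 with TopHat2 2.1.1 and computed FPKM with Cufflinks 2.2.1 (submitters' processing notes). The deposited tables hold FPKM for 27371 genes, 1 column per library, and no counts. The authors prepared stranded libraries, and whether the FPKM used strand is not given in the sources used here. Depth is unknown: only 26.2% to 37.7% of low values lay within 0.15 of whole multiples of a library's lowest values, so reads were not recovered.

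From these values, genes whose mean reached 1 FPKM in the 6 WT libraries were tested on log2(FPKM + 1) with limma 3.58.1 (R 4.3.3), with the 4 groups in 1 fit, a variance trend and no scaling between libraries. The spread is shared with the *linc1-1* libraries, which are in a separate table. Benjamini-Hochberg adjustment ran over all tested genes. The script was tested on simulated data. Identifiers were matched to TAIR10.1 (RefSeq) for 97.6% of genes.

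The members and the 24 gene lists (298 genes, 247 tested) were chosen with earlier results of these data known. Named are the called genes, the 8 largest positive and negative changes that were nominally significant but not called (mean of at least 5 FPKM, no overlap), and for a list with no call its 2 largest changes and the genes of the study's primer table. A further 22 genes (such as *AOC2*, *JAZ1*, *JAZ2*, *JAZ7*, *JAZ8*, *JAZ10*, *MYC2*, *VSP1*, *RAP2.6*, *PDF1.2a*, *IPMI1*, *GSTU5*, *ESP* and those named for PTI) and the genes below the minimum were added after their values were seen. Values per library were planned for at most 15 called genes averaging 5 FPKM or more and for 4 called genes a list, and those of the other called genes were added. Alternatives were other filters, pseudocounts, scalings and weights, a replicate block, and leaving out libraries. The alternative with genes of at least 500 bp was chosen after seeing the data.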

Additional observations from a re-analysis of the deposited data

How the results depend on the processing

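The 32 calls kept a positive direction in all 25 alternatives that tested them. The count of genes called higher was 5 with only the 6 WT libraries in the fit, 11 with no filter on low values, and 49 with either size-factor scaling or library weights. It was 28 without both replicate 1 libraries and 371 at an unadjusted p under 0.05. Leaving out 1 library at a time gave 8 to 44 genes higher and 0 to 4 lower. The higher count was 13 and 8 when mock replicates 2 and 3 of WT were dropped, 21 and 11 for WT *Pst hrcC*- replicates 1 and 3, 18 and 15 for *linc1-1* mock replicates 1 and 2, and 18 for *linc1-1* *Pst hrcC*- replicate 2. The lower count was 4 without WT *Pst hrcC*- replicate 2. Genes called lower numbered 1 with only the WT libraries, with library weights and in both fits with a replicate block, and 185 at an unadjusted p. The difference of the responses gave 2 genes with no filter, 319 at an unadjusted p, and 0 to 2 when 1 library was left out.

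Replicate numbers paired the WT libraries only in part. Deviations from the group means correlated at 0.446, 0.0782 and 0.198 for replicates 1, 2 and 3, and at −0.414 to 0.349 between different numbers. Both replicate 1 libraries thus went together, while the values of replicates 2 and 3 lay within the range of different numbers. With a replicate block within each line 30 genes were higher, 20 of them among the 32, and with a replicate block in only the WT libraries 8.

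Among named genes that were not called, the log2 fold change turned sign in *PR1* (−1.48 with library weights, −1.77 without both replicate 1 libraries, −0.66 to 2.66 leaving out 1 library), *ERF6* (0.20, 0.32 and −0.49 to 0.47), *LINC1* (0.10, 0.17, 0.053 with size-factor scaling, and −0.20 to 0.15) and *ACT2* (−0.046, −0.054 and −0.19 to 0.17). With size-factor scaling and quantile normalization it turned in *ACS11* (0.020 and 0.066, −0.32 to 0.20 leaving out 1 library) and *MYB51* (0.074 and 0.075, −0.19 to 0.12). *HSP17.6A* turned with a pseudocount of 0.1 (0.21) and quantile normalization (0.0088), and ranged from −0.61 to 0.56. Leaving out 1 library gave −0.070 to 1.12 for *CYP79F2*, −0.083 to 1.61 for *DFR*, −1.03 to 0.0028 for *LHCB4.2* and −0.0071 to 2.71 for *IRT1*. The cause was not tested.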
